A study of Homo sapiens with 18 samples.

Results

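The genes described here are the translation initiation factors, taken from the deposited expression table as the loci whose name begins with EIF1 to EIF6. The eIF2 kinases (EIF2AK) and loci that merge several gene names were left out, and a name with several loci kept the locus with the highest mean over the libraries. This gave 47 genes of 26004 named loci, and 42 of the 47 passed the filter on low values that 12201 loci passed. Messenger RNA was sequenced in 3 human diffuse large B-cell lymphoma lines of the germinal centre B-cell type, namely SUDHL6, SUDHL4 and Farage. Cells of each were given a BCL6 inhibitor (BCL6.inh) or DMSO, in 3 libraries per group, 6 groups and 18 libraries in all. The sample titles give 12 h of treatment and the source names 24 h, and the labels name neither compound nor dose. The series is about inhibitors designed against BCL6, a transcriptional repressor of germinal centre B cells, and the question asked here is how the initiation factors' transcripts differ between inhibitor and DMSO in each line.

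Initiation brings the small ribosomal subunit and the initiator tRNA to the start codon. The factor eIF2 carries the initiator tRNA with GTP, and its exchange factor eIF2B reloads it with GTP unless stress kinases have phosphorylated the alpha subunit of eIF2. The large complex eIF3 holds the small subunit, the eIF4 factors recruit it to the mRNA cap, eIF1, eIF1A and eIF5 govern the choice of start codon, and eIF5B joins the subunits. Lymphoma cells translate at a high rate, and the eIF4E-binding proteins that restrain cap-dependent initiation lie downstream of mTORC1 kinase.

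Values are FPKM (fragments scaled by transcript length and by library size), so levels can be set side by side between genes of different length. FPKM sums were 1130063 to 1548453 per library. Read counts are unknown, and the relative depth read from 16 libraries lay at 0.691 to 1.15, lower in inhibitor than in DMSO libraries in every line. Replicates correlated across genes at 0.957 to 0.973 in SUDHL4 and Farage and at 0.947 and 0.962 between replicates 1 and 2 of SUDHL6, whose replicate 3 libraries stood apart at 0.880 to 0.909. The labels do not say that replicates were separate cultures, so each p measures the spread between libraries. In bulk RNA, fewer cells of a type and less RNA per cell cannot be told apart. The B cell markers MS4A1 and PAX5 were present in every library. Their summed level was 251 to 400.0 FPKM under the inhibitor against 638 to 777 FPKM in DMSO in SUDHL6, 659 to 716 against 964 to 1017 FPKM in SUDHL4 and 239 to 251 against 492 to 519 FPKM in Farage. Summed T and NK cell markers reached at most 1.13 FPKM and CD3D was at 0 in 16 libraries. The 3 monocyte markers summed to 2.27 to 3.50 FPKM under the inhibitor and 0.694 to 1.99 FPKM in DMSO. The 3 stromal markers summed to 14.7 to 15.8 FPKM under the inhibitor against 51.2 to 55.3 FPKM in DMSO in SUDHL4 and at most 1.08 FPKM in the other lines. The part of these marker differences in the initiation factor results was not tested.

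The initiation factors did not move as a block. In SUDHL6, 7 of the 42 rose and 17 fell under the inhibitor, where 30.2% of all tested loci rose and 33.7% fell. SUDHL4 had 12 that rose and 19 that fell, against 29.6% and 37.1% of all loci. Farage had 13 that rose and 13 that fell, against 29.2% and 38% of all loci. For the mean of the 3 within-line differences, 14 rose and 21 fell, against 35.7% and 44.9% of all loci. A call needs an adjusted p under 0.05 in limma, with Benjamini-Hochberg adjustment over all 12201 loci, and differences are inhibitor minus DMSO on the log2(FPKM + 1) scale, which understates the change of low genes. The members' median difference was -0.077 in SUDHL6, 0.0035 in SUDHL4 and -0.080 in Farage, against -0.0095, -0.040 and -0.072 over all loci. Their median absolute difference was 0.27 in SUDHL6, 0.52 in SUDHL4 and 0.32 in Farage, against 0.48, 0.52 and 0.50 over all loci.

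Of the 42 factors, 6 rose in all 3 lines: EIF1, EIF1AD, EIF1B, EIF2S2, EIF4G2 and EIF5. A further 8 fell in all 3 lines: EIF2B1, EIF2B2, EIF2D, EIF3B, EIF3I, EIF3M, EIF4G1 and EIF4G3. These are 14.3% and 19.0% of the factors, where 18.3% and 21.2% of all loci rose or fell in all 3 lines. EIF1AX and EIF4E were called in opposite directions in different lines, and EIF3A, EIF3D, EIF3E and EIF4ENIF1 were called in none. EIF1AY, a Y-linked copy of EIF1AX, is counted among the 42 and not described further. Fitted alone, without the spread shared with the other lines, SUDHL6 kept 9 of its 17 lower calls. EIF2S1, EIF2S3, EIF3B, EIF3G, EIF4G1, EIF4G3, EIF5A and EIF5AL1 then had adjusted p of 0.0598 to 0.181, as did the higher call of EIF3J at 0.0898. Farage fitted alone gained the higher calls of EIF3A, EIF3L, EIF4B and EIF4ENIF1, at adjusted p of 0.00164 to 0.0467. It also gained the lower calls of EIF2S1, EIF2S3, EIF3J-AS1, EIF5A and EIF5B, at 0.00191 to 0.0247. SUDHL4 fitted alone gained the higher call of EIF5A2 (0.0406). With the replicate number as a block, the SUDHL6 higher calls came to 11 in place of 7. Without SUDHL6 inhibitor replicate 2 they also came to 11. Same-numbered libraries did not deviate together in SUDHL4 or Farage, where the block pairs libraries that share only a number. Block results for those lines, and for differences between the lines, are given with that limit.

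**Figure D1:**
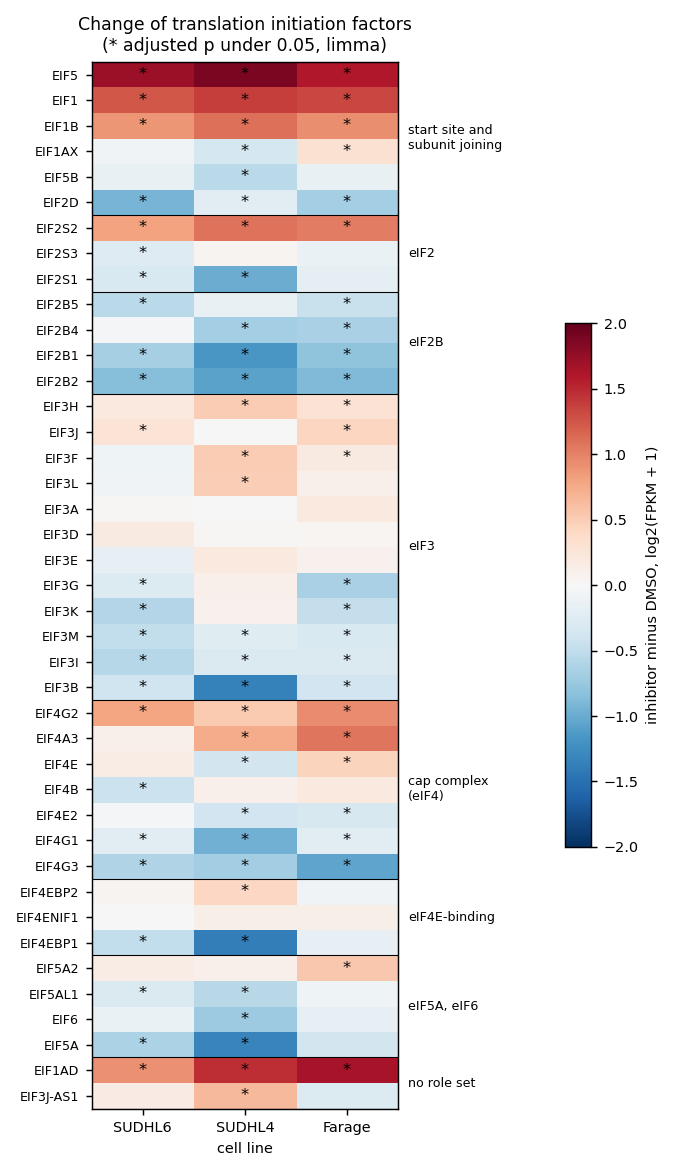
Colour map of the log2 differences, inhibitor minus DMSO on the log2(FPKM + 1) scale, of the tested initiation factors (rows, ordered by role) in SUDHL6, SUDHL4 and Farage (columns). EIF5 has the largest positive difference in SUDHL6 (1.71) and SUDHL4 (1.89) and EIF1AD in Farage (1.65), while the eIF2B rows are negative in every line.

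Among the factors that choose the start site, EIF5 and EIF1 rose in all 3 lines. EIF5 is the GTPase-activating protein of eIF2, and EIF1 keeps the scanning ribosome from stopping at poor start codons. EIF5 rose by more than any other initiation factor in SUDHL6 and SUDHL4. EIF5 lies at chr14:103797965-103811441 and EIF1 at chr17:39844695-39849247 (hg19). All hg19 intervals given here and below are those of the assembled locus, which can be wider than the gene and take in its neighbours. In SUDHL6, EIF5 had 133, 87.3 and 114 FPKM under the inhibitor, against 33.1, 32.0 and 33.9 FPKM in DMSO. In SUDHL4, EIF5 had 174, 198 and 143 FPKM under the inhibitor, against 41.5, 41.4 and 53.6 FPKM in DMSO. In Farage, EIF5 had 179.7, 184 and 179 FPKM under the inhibitor, against 57.5, 58.9 and 60.1 FPKM in DMSO. Every inhibitor library lay above every DMSO library of its line, and SUDHL4 DMSO replicate 3 was the highest of its group. EIF5 log2 differences were 1.71 ± 0.14 (adjusted p = 1.52e-07) in SUDHL6, 1.89 ± 0.14 (adjusted p = 3.77e-08) in SUDHL4 and 1.61 ± 0.14 (adjusted p = 1.76e-07) in Farage. Errors of log2 differences are SE, with 3 libraries a group. In SUDHL6, EIF1 had 566, 313 and 354 FPKM under the inhibitor, against 165, 173 and 165 FPKM in DMSO. In SUDHL4, EIF1 had 698, 782 and 653 FPKM under the inhibitor, against 251, 259 and 305 FPKM in DMSO. In Farage, EIF1 had 725, 740.5 and 764 FPKM under the inhibitor, against 287, 304 and 287 FPKM in DMSO. The groups did not overlap, and SUDHL6 inhibitor replicate 1 was well above its replicates. EIF1 log2 differences were 1.24 ± 0.16 (adjusted p = 8.47e-06) in SUDHL6, 1.39 ± 0.16 (adjusted p = 2.31e-06) in SUDHL4 and 1.34 ± 0.16 (adjusted p = 3.45e-06) in Farage. The share of EIF1 in the summed FPKM of the described factors was 6.86 to 10.8% under the inhibitor against 3.27 to 3.95% in DMSO in SUDHL6, 10.2 to 10.6% against 4.33 to 5.22% in SUDHL4 and 13.7 to 14.1% against 6.39 to 6.57% in Farage. The difference between the lines was not called for EIF5 (adjusted p = 0.449) or EIF1 (adjusted p = 0.844), although for EIF1 it was called without SUDHL6 inhibitor replicate 1 (adjusted p = 0.0267).

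The annotated start sites of these genes are shown because EIF5 and EIF1 carried the largest rises among the factors that choose the start site. Each line gives 15 bases before and 15 bases from the start, in the direction of transcription, from RefSeq on GRCh38.p14, with the first transcribed base in capitals. EIF5 has 2 annotated starts.
EIF5, chr14:103334222-103334251, plus strand: gcggcggcgttgttcAgtcagagcgagaac
EIF5, chr14:103334873-103334902, plus strand: atcccggcacccctcGgccgtgtgtcgctt
EIF1, chr17:41688870-41688899, plus strand: aggcaccgcccctctGccccagtcactgag
EIF1B, chr3:40309692-40309721, plus strand: tcggccattttgtgcGagaagccgcagcgc
None of these starts begins with a C followed by pyrimidines, unlike those of several eIF3 subunits.

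EIF1B, the paralogue of EIF1, also rose in all 3 lines. Its levels were 63.8 to 96.2 FPKM under the inhibitor and 41.2 to 45.3 FPKM in DMSO in SUDHL6, 156 to 207 FPKM under the inhibitor and 75.1 to 91.1 FPKM in DMSO in SUDHL4 and 104 to 111 FPKM under the inhibitor and 52.7 to 59.6 FPKM in DMSO in Farage. EIF1B log2 differences were 0.88 ± 0.13 (adjusted p = 3.3e-05) in SUDHL6, 1.10 ± 0.13 (adjusted p = 3.05e-06) in SUDHL4 and 0.92 ± 0.13 (adjusted p = 1.86e-05) in Farage. Its antisense neighbour EIF1B-AS1 stayed under 1 FPKM in all libraries and was not tested. Without known strand, reads of a gene and its antisense partner cannot be told apart. EIF1 exceeded EIF1B in FPKM in every library, by a ratio of 4.37 to 5.88 under the inhibitor against 3.65 to 4.19 in DMSO in SUDHL6. In SUDHL4 that ratio was 3.78 to 4.19 under the inhibitor against 3.25 to 3.35 in DMSO, and in Farage it was 6.82 to 6.98 under the inhibitor against 5.03 to 5.45 in DMSO. EIF1AD, which is named for a domain like that of eIF1A and has no established part in initiation, rose in all 3 lines. EIF1AD log2 differences were 0.92 ± 0.11 (adjusted p = 3.58e-06) in SUDHL6, 1.48 ± 0.11 (adjusted p = 3.01e-08) in SUDHL4 and 1.65 ± 0.11 (adjusted p = 1.01e-08) in Farage. It had 36.5 to 37.9 FPKM under the inhibitor and 10.9 to 11.6 FPKM in DMSO in Farage. The EIF1AD difference varied between the lines (adjusted p = 0.00281).

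**Figure D2:**
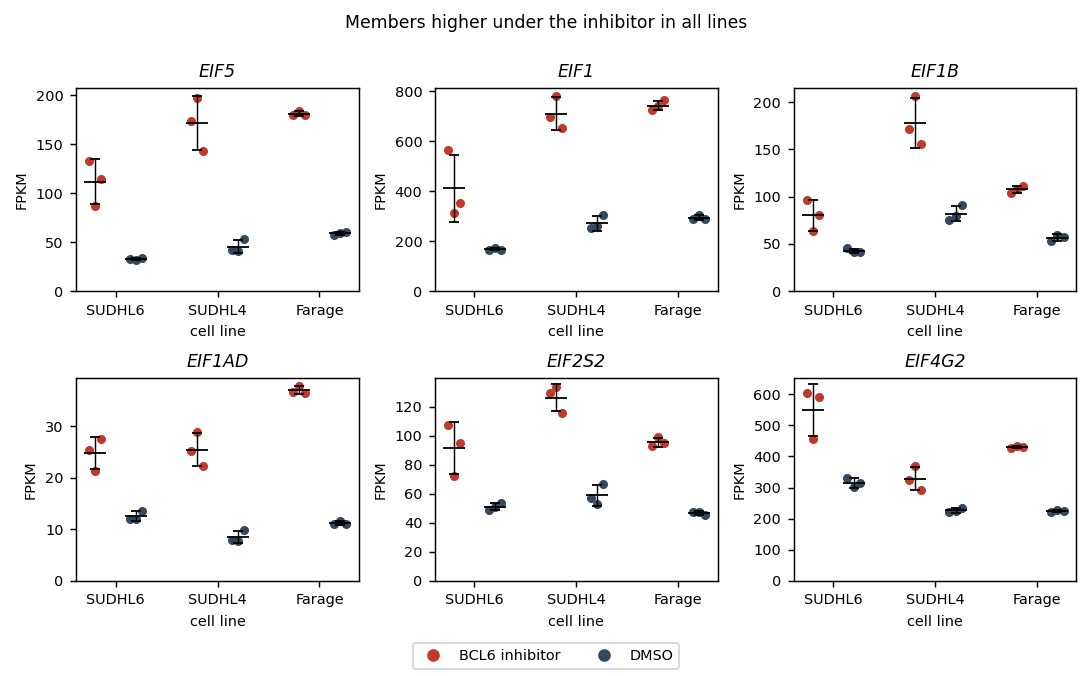
FPKM per library (points), with the mean and SD of 3 libraries, for the 6 factors called higher in all 3 lines, inhibitor (left) and DMSO (right) within each line. All inhibitor libraries lie above all DMSO libraries of their line in each panel, with EIF5 at 87.3 to 133 FPKM against 32.0 to 33.9 FPKM in SUDHL6.

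The other start-site factors did not follow EIF5 and EIF1. EIF1AX, which helps the ribosome scan, had 20.9 to 25.1 FPKM under the inhibitor and 28.6 to 30.3 FPKM in DMSO in SUDHL4, where it fell (-0.35 ± 0.095, adjusted p = 0.0041). In Farage it had 57.3 to 60.9 FPKM under the inhibitor and 45.9 to 49.0 FPKM in DMSO and rose (0.31 ± 0.095, adjusted p = 0.00919). EIF1AX is nearly identical to EIF1AY, so the split of reads between them is uncertain. EIF5B, the GTPase that joins the ribosomal subunits, fell in SUDHL4 (-0.54 ± 0.11, adjusted p = 0.000367), with 29.8 to 33.5 FPKM under the inhibitor and 46.0 to 49.2 FPKM in DMSO. In SUDHL6 its difference was -0.14 ± 0.11 (adjusted p = 0.255), and with the replicate block the adjusted p was 0.0286. In SUDHL6 without inhibitor replicate 3 it was 0.0344. In Farage the difference was -0.14 ± 0.11 (adjusted p = 0.247), with an adjusted p of 0.0247 with Farage fitted alone. With the block the Farage adjusted p was 0.0268, though the libraries it pairs there share only a number. The lines did not differ past the threshold in EIF5B (adjusted p = 0.0512), but did with the block (0.00227) and without SUDHL6 inhibitor replicate 1 (0.0392), 2 (0.0353) or 3 (0.0375) or SUDHL6 DMSO replicate 3 (0.00657).

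EIF2D, which can deliver initiator tRNA without eIF2 and takes part in ribosome recycling, fell in all 3 lines and is at chr1:206764868-206785904 (hg19). In SUDHL6, EIF2D had 16.5, 16.6 and 18.8 FPKM under the inhibitor, against 35.9, 31.7 and 34.0 FPKM in DMSO. In SUDHL4, EIF2D had 32.6, 36.6 and 31.0 FPKM under the inhibitor, against 40.1, 39.7 and 36.6 FPKM in DMSO. In Farage, EIF2D had 19.9, 21.6 and 20.1 FPKM under the inhibitor, against 31.3, 36.3 and 32.6 FPKM in DMSO. The groups were far apart in SUDHL6 and Farage and overlapped narrowly in SUDHL4. EIF2D log2 differences were -0.93 ± 0.079 (adjusted p = 1.91e-07) in SUDHL6, -0.21 ± 0.079 (adjusted p = 0.0273) in SUDHL4 and -0.67 ± 0.079 (adjusted p = 3.1e-06) in Farage. The lines differed in this response (adjusted p = 0.000362). The SUDHL4 call was lost without inhibitor replicate 1 (adjusted p = 0.0778), inhibitor replicate 3 (0.118), DMSO replicate 1 (0.0881) or DMSO replicate 2 (0.0780), and with median-ratio scaling (0.106).

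The 3 subunits of eIF2 did not move together. EIF2S2, the beta subunit and the docking site of eIF5 and eIF2B, rose in all 3 lines, while EIF2S1, the alpha subunit that stress kinases phosphorylate, fell in SUDHL6 and SUDHL4. Their assembled loci are chr20:32675567-32700347 and chr14:67708011-67853233 (hg19). In SUDHL6, EIF2S2 had 107, 72.2 and 94.9 FPKM under the inhibitor, against 48.6, 50.7 and 53.8 FPKM in DMSO. In SUDHL4, EIF2S2 had 129, 133 and 115 FPKM under the inhibitor, against 57.1, 52.9 and 67.0 FPKM in DMSO. In Farage, EIF2S2 had 93.0, 99.0 and 94.7 FPKM under the inhibitor, against 47.5, 47.1 and 45.3 FPKM in DMSO. Inhibitor libraries were above DMSO libraries without overlap in each line. EIF2S2 log2 differences were 0.81 ± 0.12 (adjusted p = 2.86e-05) in SUDHL6, 1.09 ± 0.12 (adjusted p = 1.38e-06) in SUDHL4 and 1.02 ± 0.12 (adjusted p = 2.81e-06) in Farage. In SUDHL6, EIF2S1 had 22.6, 17.8 and 24.6 FPKM under the inhibitor, against 25.0, 24.9 and 30.5 FPKM in DMSO. In SUDHL4, EIF2S1 had 13.3, 13.4 and 12.9 FPKM under the inhibitor, against 28.3, 27.2 and 26.1 FPKM in DMSO. In Farage, EIF2S1 had 25.9, 27.9 and 28.3 FPKM under the inhibitor, against 30.8, 32.0 and 31.4 FPKM in DMSO. Here every inhibitor library was below every DMSO library of its line, most clearly in SUDHL4. EIF2S1 log2 differences were -0.30 ± 0.098 (adjusted p = 0.0149) in SUDHL6, -0.99 ± 0.098 (adjusted p = 5.42e-07) in SUDHL4 and -0.19 ± 0.098 (adjusted p = 0.0972) in Farage. The SUDHL6 call of EIF2S1 was lost without inhibitor replicate 2 (adjusted p = 0.0746) or DMSO replicate 3 (0.0800) and with SUDHL6 fitted alone (0.165). The Farage call was gained without SUDHL6 inhibitor replicate 2 (0.0268) and with Farage fitted alone (0.00593). The response of EIF2S1 differed between the lines (adjusted p = 0.000516), and for EIF2S2 no difference between the lines was called (0.336).

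EIF2S3, the gamma subunit that binds GTP and the initiator tRNA, had 79.7 to 100.47 FPKM under the inhibitor and 101 to 115 FPKM in DMSO in SUDHL6, where it fell (-0.26 ± 0.07, adjusted p = 0.00447). It was most abundant in SUDHL4, with 265 to 282 FPKM under the inhibitor and 257 to 264 FPKM in DMSO and a difference of 0.054 ± 0.07 (adjusted p = 0.528). In Farage the difference was -0.14 ± 0.07 (adjusted p = 0.0968), and this was called without SUDHL6 inhibitor replicate 1 (adjusted p = 0.0469) or replicate 2 (0.0293). With Farage fitted alone it was also called (0.00191), and with SUDHL6 fitted alone the SUDHL6 call was lost (0.0991). The average call of EIF2S3 was lost with median-ratio scaling (0.263). The beta to alpha ratio, EIF2S2 over EIF2S1 in FPKM, was chosen after the values were seen and is given as a description. It was 3.86 to 4.76 under the inhibitor against 1.77 to 2.04 in DMSO in SUDHL6, 8.98 to 9.99 under the inhibitor against 1.94 to 2.56 in DMSO in SUDHL4 and 3.34 to 3.59 under the inhibitor against 1.44 to 1.54 in DMSO in Farage, so the groups stood apart in every line.

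All 4 measured subunits of eIF2B, the exchange factor of eIF2, fell on average over the lines, with 3 of 4 lower in SUDHL6, 3 of 4 in SUDHL4 and 4 of 4 in Farage. Over all tested loci 33.7%, 37.1% and 38% fell in those lines in that order, and 44.9% on average. EIF2B1 is the alpha subunit, which senses phosphorylated eIF2, and EIF2B2 is the beta subunit. Their loci are chr12:124086646-124147151 and chr14:75469494-75518235 (hg19). In SUDHL6, EIF2B1 had 30.6, 32.4 and 35.3 FPKM under the inhibitor, against 50.9, 49.5 and 56.8 FPKM in DMSO. In SUDHL4, EIF2B1 had 20.0, 20.0 and 20.6 FPKM under the inhibitor, against 46.5, 48.0 and 44.5 FPKM in DMSO. In Farage, EIF2B1 had 18.3, 19.3 and 21.4 FPKM under the inhibitor, against 33.2, 34.9 and 36.6 FPKM in DMSO. All inhibitor libraries were below all DMSO libraries of their line. EIF2B1 log2 differences were -0.66 ± 0.071 (adjusted p = 1.62e-06) in SUDHL6, -1.16 ± 0.071 (adjusted p = 7.1e-09) in SUDHL4 and -0.80 ± 0.071 (adjusted p = 1.93e-07) in Farage. In SUDHL6, EIF2B2 had 9.04, 11.5 and 14.2 FPKM under the inhibitor, against 19.1, 21.4 and 24.4 FPKM in DMSO. In SUDHL4, EIF2B2 had 7.90, 8.98 and 7.51 FPKM under the inhibitor, against 18.9, 18.8 and 16.8 FPKM in DMSO. In Farage, EIF2B2 had 12.4, 10.9 and 11.6 FPKM under the inhibitor, against 21.5, 23.7 and 21.7 FPKM in DMSO. Again the groups did not overlap. EIF2B2 log2 differences were -0.86 ± 0.13 (adjusted p = 3.5e-05) in SUDHL6, -1.07 ± 0.13 (adjusted p = 3.27e-06) in SUDHL4 and -0.88 ± 0.13 (adjusted p = 2.36e-05) in Farage. For EIF2B1 the size of the fall differed between the lines (adjusted p = 0.00227), and for EIF2B2 no such difference was called (0.513).

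EIF2B4, the delta subunit, fell in SUDHL4 (-0.68 ± 0.09, adjusted p = 9.88e-06) and Farage (-0.65 ± 0.09, adjusted p = 1.59e-05). It had 8.82 to 12.2 FPKM under the inhibitor and 16.1 to 18.1 FPKM in DMSO in SUDHL4. In SUDHL6 its groups overlapped, with 25.8 to 28.9 FPKM under the inhibitor and 27.2 to 29.1 FPKM in DMSO. EIF2B5, the catalytic epsilon subunit, fell in SUDHL6 (-0.53 ± 0.10, adjusted p = 0.000362) and Farage (-0.44 ± 0.10, adjusted p = 0.00158) and differed by -0.15 ± 0.10 (adjusted p = 0.208) in SUDHL4. The lines differed in the EIF2B4 response (adjusted p = 0.00108). For EIF2B5 no difference between the lines was called (0.0853), though it was with the replicate block (0.0408), with median-ratio scaling (0.0206) and without SUDHL6 inhibitor replicate 3 (0.0145). The gamma subunit EIF2B3 was measured only in a locus merged with another gene.

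In eIF3, the scaffold on the small subunit, 12 subunits were tested and split in direction. On average over the lines 4 rose, 5 fell and 3 were not called. These counts lay near the shares of all tested loci, of which 35.7% rose and 44.9% fell on average. EIF3B, EIF3G and EIF3I form 1 module of the complex with EIF3B as its core, and all 3 fell on average. The assembled locus of EIF3B is chr7:2376676-2420382 and that of EIF3I is chr1:32645190-32707695 (hg19). In SUDHL6, EIF3B had 143, 108 and 138 FPKM under the inhibitor, against 159, 165 and 188 FPKM in DMSO. In SUDHL4, EIF3B had 50.4, 59.5 and 48.8 FPKM under the inhibitor, against 139, 144 and 124 FPKM in DMSO. In Farage, EIF3B had 75.7, 75.8 and 79.6 FPKM under the inhibitor, against 102, 101 and 99.1 FPKM in DMSO. The groups did not overlap in any line and lay furthest apart in SUDHL4. EIF3B log2 differences were -0.40 ± 0.10 (adjusted p = 0.00346) in SUDHL6, -1.34 ± 0.10 (adjusted p = 5.31e-08) in SUDHL4 and -0.39 ± 0.10 (adjusted p = 0.00429) in Farage. In SUDHL6, EIF3I had 102, 103 and 124 FPKM under the inhibitor, against 161, 146 and 185 FPKM in DMSO. In SUDHL4, EIF3I had 139, 167 and 143 FPKM under the inhibitor, against 182, 187 and 176 FPKM in DMSO. In Farage, EIF3I had 129.7, 129.5 and 138 FPKM under the inhibitor, against 157, 168 and 159 FPKM in DMSO. Groups were again separate in each line. EIF3I log2 differences were -0.58 ± 0.093 (adjusted p = 7.88e-05) in SUDHL6, -0.28 ± 0.093 (adjusted p = 0.0152) in SUDHL4 and -0.28 ± 0.093 (adjusted p = 0.0147) in Farage. The EIF3I call was lost in SUDHL4 without inhibitor replicate 1 (adjusted p = 0.0694) or replicate 3 (0.0547), and in Farage without DMSO replicate 2 (0.0523). The EIF3B response differed between the lines (adjusted p = 0.000121). For EIF3I no such difference was called (0.108), though it was with the replicate block (0.0215), with median-ratio scaling (0.0180) and without SUDHL6 inhibitor replicate 3 (0.0268) or DMSO replicate 2 (0.0413). EIF3G fell in SUDHL6 (-0.28 ± 0.097, adjusted p = 0.0212) and Farage (-0.65 ± 0.097, adjusted p = 3.44e-05), and its SUDHL4 groups overlapped. Its SUDHL6 call was lost without inhibitor replicate 3 (0.113) or DMSO replicate 1 (0.0528), without both replicate 3 libraries (0.135) and with median-ratio scaling (0.0538).

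The subunits of the eIF3 octamer also differed among themselves. EIF3K and EIF3M fell on average, and EIF3F, EIF3H and EIF3L rose on average. EIF3K lies at chr19:39109716-39127639 (hg19). In SUDHL6, EIF3K had 175, 149 and 172 FPKM under the inhibitor, against 241, 226 and 275 FPKM in DMSO. In SUDHL4, EIF3K had 317, 348 and 305 FPKM under the inhibitor, against 300.0, 307 and 308 FPKM in DMSO. In Farage, EIF3K had 172, 169 and 177 FPKM under the inhibitor, against 236, 249 and 241 FPKM in DMSO. The groups were separate in SUDHL6 and Farage and overlapped in SUDHL4, where the inhibitor libraries were the more spread. EIF3K log2 differences were -0.58 ± 0.077 (adjusted p = 1.27e-05) in SUDHL6, 0.083 ± 0.077 (adjusted p = 0.365) in SUDHL4 and -0.48 ± 0.077 (adjusted p = 5.98e-05) in Farage. With quantile normalization the SUDHL4 difference was -0.0074 (adjusted p = 0.967). The lines differed (adjusted p = 0.000346).

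EIF3M fell in all 3 lines. EIF3M log2 differences were -0.49 ± 0.097 (adjusted p = 0.000438) in SUDHL6, -0.24 ± 0.097 (adjusted p = 0.039) in SUDHL4 and -0.31 ± 0.097 (adjusted p = 0.0111) in Farage. It was scarcest in SUDHL6, with 44.7 to 59.8 FPKM under the inhibitor and 64.1 to 81.9 FPKM in DMSO, and in SUDHL4 it had 187 to 208 FPKM under the inhibitor and 226 to 242 FPKM in DMSO. Its SUDHL4 call was lost without inhibitor replicate 1 (adjusted p = 0.0770), inhibitor replicate 3 (0.125), DMSO replicate 1 (0.112), DMSO replicate 2 (0.0550) or DMSO replicate 3 (0.0700), with median-ratio scaling (0.0890) and with no filter (0.0539). Its difference between the lines (0.274) was called with the replicate block (0.0383) and without SUDHL6 inhibitor replicate 3 (0.0420). EIF3H, a subunit with an MPN fold, rose in SUDHL4 (0.51 ± 0.095, adjusted p = 0.000253) and Farage (0.30 ± 0.095, adjusted p = 0.0133). It had 648 to 739 FPKM under the inhibitor and 462 to 511 FPKM in DMSO in SUDHL4. In SUDHL6 the EIF3H difference was 0.20 ± 0.095 (adjusted p = 0.0806), and with the replicate block the adjusted p was 0.0162. It was 0.00649 without inhibitor replicate 2 and 0.0259 without DMSO replicate 3. The EIF3H difference between the lines (0.146) was called with the block (0.0314) and without SUDHL6 inhibitor replicate 3 (0.0337). The Farage call of EIF3H was lost with quantile normalization (0.285). EIF3F rose in SUDHL4 (0.51 ± 0.072, adjusted p = 2.11e-05), with 408 to 469.8 FPKM under the inhibitor and 289.6 to 313 FPKM in DMSO. Its Farage call (0.18 ± 0.072, adjusted p = 0.0439) was lost in 9 of the fits that leave out 1 library, at up to 0.146 without Farage inhibitor replicate 3, and with quantile normalization (0.409) or no filter (0.0530). EIF3L rose in SUDHL4 (0.49 ± 0.093, adjusted p = 0.000316), with 556 to 625 FPKM under the inhibitor and 405 to 432 FPKM in DMSO. With quantile normalization the average calls of EIF3F (0.0545) and EIF3L (0.200) were lost.

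EIF3A, the largest eIF3 subunit, EIF3D, which can itself bind a cap, and EIF3E were not called in any line. EIF3A had 103 to 114 FPKM under the inhibitor and 106 to 108 FPKM in DMSO in SUDHL4, with a difference of 0.006 ± 0.091 (adjusted p = 0.972). In Farage it differed by 0.20 ± 0.091 (adjusted p = 0.0664), which was called without SUDHL6 inhibitor replicate 2 (0.0165) or SUDHL6 DMSO replicate 3 (0.0469) and with median-ratio scaling (0.00943). With Farage fitted alone the EIF3A difference was called as well (0.0109). EIF3E had the highest SUDHL4 level of the eIF3 subunits, 719 to 803 FPKM under the inhibitor and 599 to 712 FPKM in DMSO, with a difference of 0.20 ± 0.15 (adjusted p = 0.263). EIF3D differed by 0.18 ± 0.093 (adjusted p = 0.115) in SUDHL6, and the adjusted p was 0.0357 with the replicate block and 0.00480 without inhibitor replicate 2. EIF3J, a loosely held subunit, rose in SUDHL6 (0.27 ± 0.089, adjusted p = 0.0158) and Farage (0.43 ± 0.089, adjusted p = 0.000571). Its SUDHL6 groups overlapped, and that call was lost without inhibitor replicate 1 (0.0533), inhibitor replicate 3 (0.0690), DMSO replicate 1 (0.0552) or DMSO replicate 2 (0.0541). EIF3J has an antisense neighbour, EIF3J-AS1, which rose in SUDHL4 (0.64 ± 0.12, adjusted p = 0.000325), where it had 6.89 to 8.35 FPKM under the inhibitor and 4.41 to 4.78 FPKM in DMSO. In Farage EIF3J-AS1 had 1.22 to 1.68 FPKM under the inhibitor and 1.87 to 2.08 FPKM in DMSO, with every inhibitor library below every DMSO library and a difference of -0.28 ± 0.12 (adjusted p = 0.0622). That difference was called with a pseudocount of 0.1 (0.0292), with Farage fitted alone (0.0211) and with the replicate block (0.0426), which pairs Farage libraries by number only. It was also called without SUDHL6 DMSO replicate 1 (0.0215) or replicate 3 (0.0148). In SUDHL6 it was 0.17 ± 0.12 (adjusted p = 0.246), called without DMSO replicate 1 (0.0187), and the lines differed (adjusted p = 0.00199). Its average call (0.18 ± 0.072, adjusted p = 0.0315) was lost without 1 of 7 single libraries, at up to 0.0646 without Farage inhibitor replicate 2, and with a pseudocount of 0.1 (0.0861). The summed FPKM of the tested eIF3 subunits was 2010.1 to 2570.0 under the inhibitor against 2349.8 to 2752 in DMSO in SUDHL6, 3511 to 3979.6 under the inhibitor against 3196 to 3284 in DMSO in SUDHL4 and 2234 to 2304 under the inhibitor against 2228 to 2372 in DMSO in Farage, a description with no test.

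**Figure D3:**
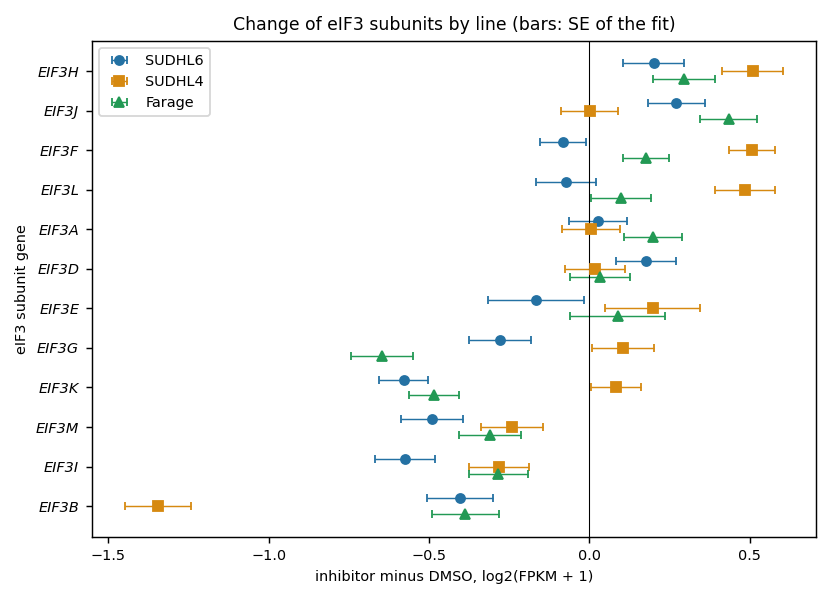
Log2 differences, inhibitor minus DMSO on the log2(FPKM + 1) scale, of the 12 tested eIF3 subunits in SUDHL6, SUDHL4 and Farage. EIF3B in SUDHL4 lies lowest at -1.34, and EIF3H in SUDHL4 highest at 0.51.

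Start sequences are shown for the 7 factors whose annotated first base is a C followed by at least 4 pyrimidines, because such starts are known from mRNAs of the translation machinery that respond to mTORC1. The pattern was searched on the transcribed strand only, at the first base. RefSeq promoter windows matched 33 of the 41 described factors that were tested, with 46 windows in all. Each line gives 15 bases before and 15 bases from the start on GRCh38.p14, with the unbroken run of pyrimidines from the first base in capitals.
EIF2D, chr1:206612451-206612480, minus strand: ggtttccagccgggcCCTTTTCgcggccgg
EIF2S3, chrX:24054941-24054970, plus strand: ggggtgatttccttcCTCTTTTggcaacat
EIF3D, chr22:36529152-36529181, minus strand: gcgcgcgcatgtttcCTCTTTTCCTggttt
EIF3F, chr11:7987322-7987351, plus strand: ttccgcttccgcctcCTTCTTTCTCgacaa
EIF3K, chr19:38619173-38619202, plus strand: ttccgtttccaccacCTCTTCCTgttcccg
EIF3M, chr11:32583816-32583845, plus strand: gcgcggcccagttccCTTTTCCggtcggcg
EIF4B, chr12:53006441-53006470, plus strand: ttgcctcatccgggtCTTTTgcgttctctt
The run was longest in EIF3D and EIF3F, at 10 bases, and shortest in EIF4B, at 5 bases. The pattern stood in 7 of the 46 windows and in 4.07% of 35116 windows of all genes. Of these 7 factors, 5 fell and 0 rose in SUDHL6, where the other 26 matched factors had 10 that fell and 6 that rose. In SUDHL4, 2 of the 7 fell and 1 rose, against 15 and 7 of the other 26. In Farage, 3 of the 7 fell and 1 rose, against 9 and 10 of the other 26. Over all tested loci 33.7% fell and 30.2% rose in SUDHL6, 37.1% and 29.6% in SUDHL4 and 38% and 29.2% in Farage. The average difference of the 7 had a median of -0.12, against -0.26 for the other 26, with no test of the contrast. A start annotated at another base would not show the pattern.

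Among the cap-side factors, the 3 scaffolds of the eIF4G family parted. EIF4G2, also known as DAP5, lacks the eIF4E-binding region and rose in all 3 lines. EIF4G1, the main scaffold between cap and ribosome, and its relative EIF4G3 fell in all 3 lines. They lie at chr11:10817325-10830651, chr3:184032282-184053246 and chr1:21119369-21504265 (hg19). In SUDHL6, EIF4G2 had 604, 455 and 592 FPKM under the inhibitor, against 332, 301 and 313 FPKM in DMSO. In SUDHL4, EIF4G2 had 324, 369 and 294 FPKM under the inhibitor, against 221, 224 and 235 FPKM in DMSO. In Farage, EIF4G2 had 427, 435 and 431 FPKM under the inhibitor, against 222, 226 and 225 FPKM in DMSO. Inhibitor libraries were above DMSO libraries without overlap in every line. EIF4G2 log2 differences were 0.79 ± 0.098 (adjusted p = 6.4e-06) in SUDHL6, 0.53 ± 0.098 (adjusted p = 0.000228) in SUDHL4 and 0.94 ± 0.098 (adjusted p = 9.98e-07) in Farage. In SUDHL6, EIF4G1 had 92.3, 76.4 and 91.7 FPKM under the inhibitor, against 92.8, 103 and 107 FPKM in DMSO. In SUDHL4, EIF4G1 had 46.4, 49.5 and 46.3 FPKM under the inhibitor, against 93.4, 99.96 and 85.8 FPKM in DMSO. In Farage, EIF4G1 had 76.7, 76.3 and 79.8 FPKM under the inhibitor, against 95.3, 88.9 and 90.1 FPKM in DMSO. Inhibitor libraries were below DMSO libraries in each line, narrowly in SUDHL6 and widely in SUDHL4. EIF4G1 log2 differences were -0.22 ± 0.078 (adjusted p = 0.0235) in SUDHL6, -0.96 ± 0.078 (adjusted p = 9.03e-08) in SUDHL4 and -0.23 ± 0.078 (adjusted p = 0.0164) in Farage. The EIF4G1 call was lost in SUDHL6 without inhibitor replicate 2 (adjusted p = 0.122), DMSO replicate 2 (0.0662) or DMSO replicate 3 (0.0909), and in Farage without DMSO replicate 1 (0.0631) or with median-ratio scaling (0.0826). In SUDHL6, EIF4G3 had 20.7, 18.8 and 11.9 FPKM under the inhibitor, against 25.3, 27.9 and 24.7 FPKM in DMSO. In SUDHL4, EIF4G3 had 23.4, 23.3 and 23.9 FPKM under the inhibitor, against 39.6, 39.9 and 37.3 FPKM in DMSO. In Farage, EIF4G3 had 11.8, 11.6 and 10.7 FPKM under the inhibitor, against 25.3, 23.5 and 25.8 FPKM in DMSO. SUDHL6 inhibitor replicate 3 was lower than its replicates, and the groups were separate in every line. EIF4G3 log2 differences were -0.61 ± 0.14 (adjusted p = 0.00126) in SUDHL6, -0.70 ± 0.14 (adjusted p = 0.000352) in SUDHL4 and -1.06 ± 0.14 (adjusted p = 7.94e-06) in Farage.

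The lines differed in the EIF4G1 response (adjusted p = 0.000101). No such difference was called for EIF4G2 (0.0584) or EIF4G3 (0.122), though it was for EIF4G3 without SUDHL6 inhibitor replicate 3 (0.000127). For EIF4G2 it was called with the replicate block (0.0429) and without SUDHL6 inhibitor replicate 1 (0.0447), SUDHL6 inhibitor replicate 2 (0.00494) or SUDHL4 inhibitor replicate 2 (0.0218). The ratio of EIF4G2 to EIF4G1 in FPKM, a description chosen after the values were seen, was 5.95 to 6.54 under the inhibitor against 2.91 to 3.58 in DMSO in SUDHL6. It was 6.34 to 7.46 under the inhibitor against 2.24 to 2.74 in DMSO in SUDHL4 and 5.41 to 5.70 under the inhibitor against 2.33 to 2.55 in DMSO in Farage.

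EIF4E, the cap-binding protein at chr4:99797930-99851786 (hg19), was lower in SUDHL4 and higher in Farage. In SUDHL6, EIF4E had 15.1, 13.6 and 15.99 FPKM under the inhibitor, against 13.2, 12.2 and 14.6 FPKM in DMSO. In SUDHL4, EIF4E had 28.2, 27.5 and 27.1 FPKM under the inhibitor, against 37.0, 33.8 and 36.6 FPKM in DMSO. In Farage, EIF4E had 46.6, 50.4 and 48.3 FPKM under the inhibitor, against 33.5, 37.1 and 35.5 FPKM in DMSO. The groups were separate in opposite directions in SUDHL4 and Farage and overlapped in SUDHL6. EIF4E log2 differences were 0.15 ± 0.071 (adjusted p = 0.0757) in SUDHL6, -0.36 ± 0.071 (adjusted p = 0.000362) in SUDHL4 and 0.44 ± 0.071 (adjusted p = 6.43e-05) in Farage. With the replicate block the SUDHL6 adjusted p was 0.0148, and it was 0.0179 without inhibitor replicate 2, 0.0194 without DMSO replicate 3 and 0.0236 with median-ratio scaling. EIF4E had the smallest adjusted p of the described factors for a difference between the lines, 5.56e-05. EIF4E2, a cap-binding protein known as a repressor of translation, fell in SUDHL4 (-0.38 ± 0.066, adjusted p = 0.000115) and Farage (-0.33 ± 0.066, adjusted p = 0.000451). Its SUDHL6 levels overlapped, at 39.8 to 44.7 FPKM under the inhibitor and 41.6 to 45.6 FPKM in DMSO.

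EIF4A3, a helicase of the exon junction complex, rose in SUDHL4 (0.75 ± 0.22, adjusted p = 0.0085) and Farage (1.07 ± 0.22, adjusted p = 0.000676). Its SUDHL4 libraries were 76.2, 104 and 55.7 FPKM under the inhibitor and 45.2, 44.3 and 45.4 FPKM in DMSO, and the call was lost without inhibitor replicate 2 (adjusted p = 0.0519). In Farage it had 231 to 238 FPKM under the inhibitor and 108 to 116 FPKM in DMSO. EIF4B, which stimulates the helicase eIF4A, fell in SUDHL6 (-0.43 ± 0.085, adjusted p = 0.000453), with 158 to 211 FPKM under the inhibitor and 236 to 264 FPKM in DMSO. In SUDHL4 its difference was 0.11 ± 0.085 (adjusted p = 0.278). In Farage it was 0.19 ± 0.085 (adjusted p = 0.0619), and this was called without SUDHL6 inhibitor replicate 2 (0.00580) or replicate 3 (0.0341). With Farage fitted alone it was also called (0.00164). The lines differed in the responses of EIF4B (0.00121) and EIF4E2 (0.00946).

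EIF4EBP1, the protein that binds eIF4E and keeps it from EIF4G1 until mTORC1 phosphorylates it, fell in SUDHL6 and SUDHL4 and lies at chr8:37887850-37917951 (hg19). In SUDHL6, EIF4EBP1 had 39.4, 52.8 and 48.2 FPKM under the inhibitor, against 59.9, 67.4 and 70.2 FPKM in DMSO. In SUDHL4, EIF4EBP1 had 17.7, 19.2 and 19.4 FPKM under the inhibitor, against 53.0, 53.7 and 44.3 FPKM in DMSO. In Farage, EIF4EBP1 had 18.5, 20.9 and 22.1 FPKM under the inhibitor, against 22.0, 25.2 and 22.4 FPKM in DMSO. The groups were separate in SUDHL6 and SUDHL4 and overlapped in Farage, where levels were low in both groups. EIF4EBP1 log2 differences were -0.49 ± 0.11 (adjusted p = 0.00115) in SUDHL6, -1.38 ± 0.11 (adjusted p = 6.53e-08) in SUDHL4 and -0.17 ± 0.11 (adjusted p = 0.183) in Farage. The lines differed (adjusted p = 5.86e-05). EIF4EBP2, a second binding protein, rose in SUDHL4 (0.42 ± 0.076, adjusted p = 0.000187), with 37.6 to 40.1 FPKM under the inhibitor and 27.8 to 29.2 FPKM in DMSO, and was called in neither other line. EIF4ENIF1, which carries eIF4E into the nucleus, differed by 0.11 ± 0.085 (adjusted p = 0.26) in Farage and was called in no line. With median-ratio scaling it was called in SUDHL4 (0.0331) and Farage (0.0317), and with Farage fitted alone in Farage (0.0467). The FPKM ratio of EIF4E to EIF4EBP1, a description chosen after the values were seen, was 0.257 to 0.384 under the inhibitor against 0.181 to 0.220 in DMSO in SUDHL6. It was 1.40 to 1.60 under the inhibitor against 0.630 to 0.827 in DMSO in SUDHL4 and 2.18 to 2.52 under the inhibitor against 1.47 to 1.59 in DMSO in Farage, so it was higher under the inhibitor in each line.

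EIF5A and EIF6 bear initiation factor names, although EIF5A mainly helps elongation through difficult sequences and EIF6 keeps the large subunit from joining too early. EIF5A fell in SUDHL6 and SUDHL4 and EIF6 in SUDHL4. They lie at chr17:7210205-7232638 and chr20:33866089-33872891 (hg19). In SUDHL6, EIF5A had 216, 208 and 319.7 FPKM under the inhibitor, against 343, 329.9 and 475 FPKM in DMSO. In SUDHL4, EIF5A had 117, 141 and 111 FPKM under the inhibitor, against 323, 327 and 274 FPKM in DMSO. In Farage, EIF5A had 269.8, 276 and 315 FPKM under the inhibitor, against 350.0, 400.0 and 363 FPKM in DMSO. Inhibitor libraries were below DMSO libraries of the same line throughout, and both SUDHL6 replicate 3 libraries were above their replicates. EIF5A log2 differences were -0.63 ± 0.17 (adjusted p = 0.00393) in SUDHL6, -1.32 ± 0.17 (adjusted p = 6.28e-06) in SUDHL4 and -0.37 ± 0.17 (adjusted p = 0.0621) in Farage. In Farage the call was gained without SUDHL6 inhibitor replicate 3 (adjusted p = 0.0231) or SUDHL6 DMSO replicate 3 (0.0360). It was also gained with Farage fitted alone (0.00658), while the SUDHL6 call was lost with SUDHL6 fitted alone (0.0742). In SUDHL6, EIF6 had 131, 126 and 142 FPKM under the inhibitor, against 146, 139 and 151 FPKM in DMSO. In SUDHL4, EIF6 had 59.6, 65.3 and 52.7 FPKM under the inhibitor, against 104, 99.2 and 91.5 FPKM in DMSO. In Farage, EIF6 had 90.4, 89.4 and 106 FPKM under the inhibitor, against 97.5, 117 and 107 FPKM in DMSO. The EIF6 groups were separate in SUDHL4 and overlapped in SUDHL6 and Farage. EIF6 log2 differences were -0.13 ± 0.091 (adjusted p = 0.245) in SUDHL6, -0.72 ± 0.091 (adjusted p = 6.5e-06) in SUDHL4 and -0.17 ± 0.091 (adjusted p = 0.124) in Farage. Without Farage inhibitor replicate 3 the Farage difference of EIF6 was called (0.0378).

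EIF5A2, a less widely expressed copy of EIF5A, rose in Farage (0.53 ± 0.069, adjusted p = 9.14e-06), with 5.57 to 5.74 FPKM under the inhibitor and 3.37 to 3.76 FPKM in DMSO. In SUDHL6 and SUDHL4 it stayed at 0.630 to 1.14 FPKM. Its SUDHL6 difference was 0.15 ± 0.069 (adjusted p = 0.0703), with an adjusted p of 0.0497 with the replicate block and 0.00135 without inhibitor replicate 3. EIF5AL1, nearly identical to EIF5A, was at 0.366 to 1.35 FPKM in all libraries. It was called lower in SUDHL6 (-0.29 ± 0.11, adjusted p = 0.0299) and in SUDHL4 (-0.56 ± 0.11, adjusted p = 0.00037), and since reads can be split between the copies its values are uncertain. Only DMSO libraries of SUDHL6 and SUDHL4 reached 1 FPKM, and no inhibitor library exceeded 0.726 FPKM. EIF5AL1 thus passed the filter only through groups where it was high. Its lower calls, which enter the counts of lower factors, follow in part from that selection and are no evidence of a fall. The EIF5AL1 difference between the lines (0.053) was called with the replicate block (0.00247) and without 1 of 5 of the SUDHL6 libraries. The SUDHL6 call of EIF5AL1 was lost without inhibitor replicate 3 (0.143), DMSO replicate 1 (0.119) or DMSO replicate 2 (0.129). The 5 members below the filter were EIF1AX-AS1, EIF1B-AS1, EIF3IP1, EIF4E1B and EIF4E3. Their highest values in any library were 1.45, 0.895, 0.0932, 0.149 and 0.183 FPKM in that order.

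The response differed between the lines in 25 of the 42 factors by limma's moderated F test, where 52.5% of all tested loci were called. The smallest adjusted p belonged to EIF4E, EIF4EBP1, EIF4G1, EIF3B, EIF3K and EIF2D, from 5.56e-05 for EIF4E to 0.000362 for EIF2D. For EIF4EBP1, EIF4G1 and EIF3B the SUDHL4 difference was the most negative of the 3 lines, at -1.38, -0.96 and -1.34. For EIF3K and EIF2D the SUDHL6 difference was the most negative, at -0.58 and -0.93. EIF4E alone among these 6 was called in opposite directions. Without single libraries the count of factors that differed was 22 to 32.

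**Figure D4:**
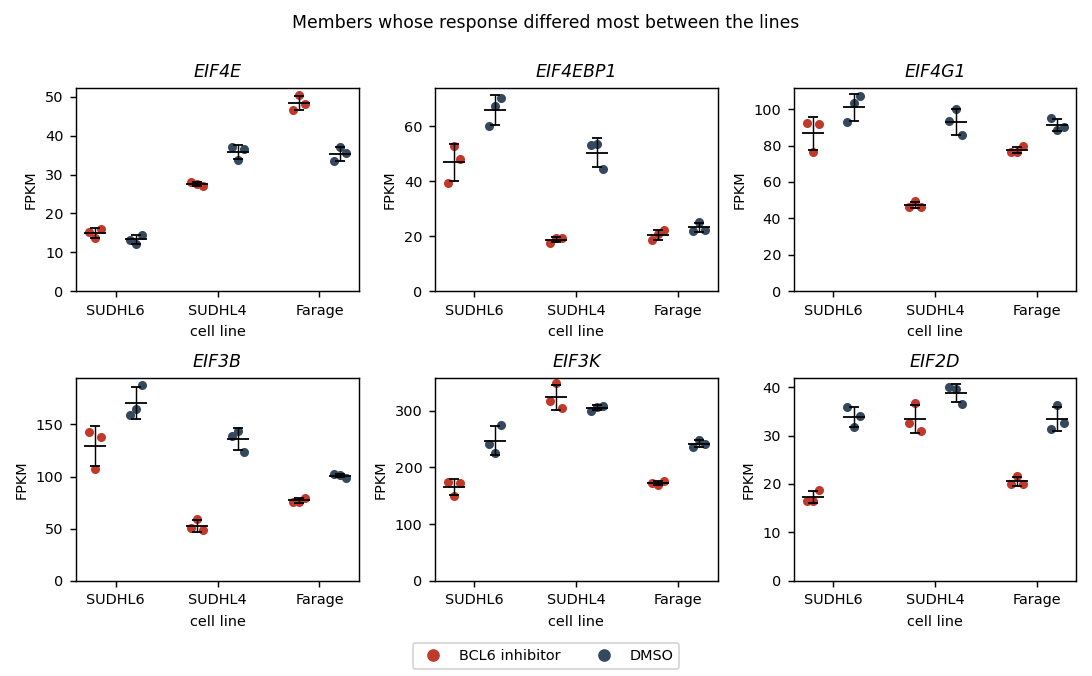
FPKM per library (points), with the mean and SD of 3 libraries, for the 6 factors with the smallest adjusted p for a difference between the lines, inhibitor (left) and DMSO (right) within each line. EIF4E is lower under the inhibitor in SUDHL4 (27.1 to 28.2 against 33.8 to 37.0 FPKM) and higher in Farage (46.6 to 50.4 against 33.5 to 37.1 FPKM).

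A promoter hexamer bound by MYC and related factors, CACGTG, was searched on both strands in windows of 250 bases before to 50 bases after the start. It stood in 8 of the 46 factor windows and in 7.26% of 35116 windows of all genes. The windows of EIF4E, EIF4G1 and EIF3K are shown since these 3 of the 8 were among the 6 factors that differed most between the lines, with the hexamer in capitals and 12 bases on either side (RefSeq, GRCh38.p14).
EIF4E, chr4:98929341-98929370, minus strand: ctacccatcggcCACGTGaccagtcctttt
EIF4G1, chr3:184314450-184314479, plus strand: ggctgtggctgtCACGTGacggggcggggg
EIF3K, chr19:38619073-38619102, plus strand: cgaggaagaagtCACGTGgcagccggaaag
The 8 factors with a match were EIF1B, EIF3F, EIF3K, EIF4A3, EIF4B, EIF4E, EIF4G1 and EIF5A2. Over all tested loci 35.7% rose and 44.9% fell on average over the lines. Of the 8 factors, 4 rose and 2 fell on average, against 6 and 16 of the 25 matched factors without it. Their median average difference was 0.14, against -0.31 for the other 25, as a description with no test.

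The rest of the translation pathway was read from 7 lists of genes. The genes that stress kinases act through, downstream of phosphorylated eIF2, rose on average in 10 of the 10 tested cases and fell in 0, with a median of 2.26. They included ATF3 at 4.05 ± 0.24 (adjusted p = 1.05e-09), DDIT3 at 3.58 ± 0.25 (adjusted p = 5.05e-09) and TRIB3 at 2.95 ± 0.16 (adjusted p = 3.61e-10). Of 11 eIF2 kinases and phosphatase subunits, 5 rose and 5 fell on average, with a median of 0.064. PPP1R15A and PPP1R15B, the subunits that direct the phosphatase to eIF2, rose by 3.52 ± 0.26 (adjusted p = 1.14e-08) and 1.77 ± 0.071 (adjusted p = 3.34e-11). EIF2AK3, the kinase PERK, rose by 2.06 ± 0.10 (adjusted p = 1.45e-10). Over all loci the median average difference was -0.081, with 35.7% higher and 44.9% lower.

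The list counts on average stand beside 35.7% higher and 44.9% lower over all loci. Genes for poly(A) and mRNA binding proteins rose in 8 of 10 cases on average and fell in 0, with a median of 0.51 and CPEB4 at 1.76 ± 0.10 (adjusted p = 9.83e-10). Among 11 initiation helpers, 3 rose and 7 fell on average, with a median of -0.22. MIF4GD, a partner of the eIF4G family in histone mRNA translation, fell (-1.40 ± 0.078, adjusted p = 5.25e-10). The eIF5-mimic proteins parted, with BZW2 lower (-0.69 ± 0.088, adjusted p = 4.3e-06) and BZW1 higher (0.60 ± 0.064, adjusted p = 5.49e-07). Of 7 termination and recycling genes 1 rose and 5 fell, with a median of -0.24. MCTS1, a partner of DENR that acts like EIF2D, fell (-0.72 ± 0.041, adjusted p = 6.54e-10). Of 7 elongation genes 2 rose and 2 fell, with a median of 0.066, and EEF2K, the kinase of eEF2, fell (-1.51 ± 0.051, adjusted p = 1.05e-11). Of 13 genes of mTORC1 and MNK signalling 4 rose and 6 fell, near the share of all loci, with a median of -0.019. TSC1 rose (1.69 ± 0.084, adjusted p = 1.71e-10) and its partner TSC2 fell (-0.98 ± 0.057, adjusted p = 8.26e-10). In the stress list 9 of 10 rose in SUDHL6, 8 in SUDHL4 and 10 in Farage, where 30.2%, 29.6% and 29.2% of all loci rose in that order.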

How the data were processed

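The authors deposited 1 table of FPKM values per locus and library, with no counts. Per the submitters' processing notes, CASAVA 1.8, TopHat2, Cufflinks and the build hg19 were used, and library preparation was an Illumina mRNA kit, per the labels' protocols. Not given in the sources used here are other versions, the annotation, strandedness and scaling. Of 34410 loci, 8406 had no gene name and were left out. Depth is unknown, so no counting interval is given, and relative depth was read from the steps of FPKM values at loci of 56 bases (tolerance 0.02). All value columns matched a library.

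Named loci were tested if 3 or more of 18 libraries reached 1 FPKM. The model, on log2(FPKM + 1), had 1 mean for each group and an intensity-trended prior in limma 3.58.1 under R 4.3.3, and p-values were adjusted by Benjamini-Hochberg over all loci. The procedure was tested on simulated data. Tables and figures used Python 3.11.15, numpy 2.4.6, pandas 2.3.3 and matplotlib 3.10.9. Values of every library are given for the factors with the largest average changes in each role. They are also given for the 6 with the smallest p for a difference between the lines. The other members are given by ranges. Per pathway list, up to 3 genes with the largest average change are named. The members, roles and lists were chosen with earlier results of these data known.

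Same-numbered inhibitor and DMSO libraries deviated together in SUDHL6 (correlations 0.309, 0.366 and 0.664) and not in SUDHL4 or Farage (-0.058 to 0.077), so by the rule that every such correlation exceed 0.1 the replicate block is read as pairing in SUDHL6 only. Differently numbered SUDHL6 libraries 1 and 2 correlated as closely (0.320 and 0.271), so the check sets replicate 3 apart and does not tell replicates 1 and 2 from each other. The alternatives were other pseudocounts (0.1) and filters (none, 5 FPKM), scalings, the block, each library left out, both SUDHL6 replicate 3 libraries left out, and each line fitted alone.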

Additional observations from a re-analysis of the deposited data

Results flagged for a closer look

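The difference between inhibitor and DMSO was not the same in the 3 lines for 24 described factors, by the moderated F test with the adjusted p given after each name. Cap-side factors and their partners were EIF4E (5.56e-05), EIF4EBP1 (5.86e-05), EIF4G1 (0.000101), EIF4B (0.00121), EIF4EBP2 (0.00389) and EIF4E2 (0.00946). Subunits of eIF3 were EIF3B (0.000121), EIF3K (0.000346), EIF3F (0.000977), EIF3G (0.00143), EIF3L (0.00745) and EIF3J (0.0282), beside the antisense locus EIF3J-AS1 (0.00199). Factors of the eIF2 cycle and the start site were EIF2D (0.000362), EIF2S1 (0.000516), EIF2B4 (0.00108), EIF2B1 (0.00227), EIF1AX (0.00285) and EIF2S3 (0.042). The others were EIF6 (0.00229), EIF1AD (0.00281), EIF5A2 (0.00364), EIF5A (0.00979) and EIF4A3 (0.0486). SUDHL4 had the most negative log2 difference of the 3 lines for EIF2S1 (-0.99), EIF2B1 (-1.16), EIF6 (-0.72) and EIF5A (-1.32), and the most positive for EIF3F (0.51) and EIF3L (0.49). The EIF4A3 call was lost at up to 0.101 without SUDHL6 DMSO replicate 3 and at lower values without most other single libraries. The EIF2S3 call was lost at up to 0.0975 without SUDHL4 inhibitor replicate 2, and the EIF3J call at up to 0.0658 without SUDHL4 DMSO replicate 1. EIF5A2 was not called with a pseudocount of 0.1 (0.110), nor EIF3L (0.0532) and EIF5A (0.0905) with quantile normalization.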

How the results depend on the processing

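Under 25 alternatives to the fit over all lines and with each line alone, 228 counts of called factors stayed within 1.5 times the value reported. The exceptions were in SUDHL6, where 11 factors rose with the replicate block and 11 without inhibitor replicate 2, in place of 7, and where 9 fell with the line fitted alone, in place of 17. With single libraries left out, the counts were 6 to 11 higher and 15 to 17 lower in SUDHL6, 11 to 12 and 16 to 19 in SUDHL4, 12 to 15 and 12 to 15 in Farage, and 13 to 17 and 21 for the average. With the block, Farage had 14 higher and 18 lower and SUDHL4 12 and 19. There the libraries share only a number. Apart from EIF3K in SUDHL4 (-0.0074 with quantile normalization), no difference of the factors given library by library changed sign under these alternatives. The calls that changed with each line fitted alone are given above and left out of the numbers that follow. Over all described factors and comparisons, calls gained and lost numbered 14 and 5 with median-ratio scaling, 9 and 7 with quantile normalization, 1 and 3 with a pseudocount of 0.1, and 0 and 3 with no filter. They numbered 19 and 0 with the block, 13 and 3 without both SUDHL6 replicate 3 libraries, and 44 and 78 over the fits without single libraries. Among those gained by scaling were Farage calls of EIF4B (0.00628, median-ratio), EIF5A (0.0178, quantile) and EIF6 (0.0462, quantile) and a SUDHL4 call of EIF4B (0.0458, median-ratio). The cause of these changes was not tested. The Farage median difference was -0.033 with no filter and -0.024 with median-ratio scaling. FPKM without counts leaves the precision of EIF5A2, EIF5AL1 and other factors near 1 FPKM unknown.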

Other observations

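The assembly merged several initiation factors with other genes, so that the values of such a locus cannot be assigned to 1 gene. The locus of EIF4H, a stimulator of the helicase eIF4A, and LAT2 rose in SUDHL6 (log2 difference 0.46 ± 0.12, adjusted p = 0.00406) and also in SUDHL4 (0.42 ± 0.12, adjusted p = 0.00722). In Farage its difference was 0.28 ± 0.12, adjusted p = 0.0551. The locus with EIF4A1, the main initiation helicase, and 4 other names was called only in Farage (0.40 ± 0.12, adjusted p = 0.00921), where it had 572 to 600.1 FPKM under the inhibitor and 438 to 462 FPKM in DMSO. The locus with EIF4A2, a second helicase, and small RNAs hosted there varied widely between Farage libraries, at 581 to 979.8 FPKM under the inhibitor and 296 to 522 FPKM in DMSO (0.80 ± 0.25, adjusted p = 0.0121). The locus with EIF4EBP3 and ANKHD1 rose in all 3 lines, by 0.64 ± 0.081, adjusted p = 7.79e-06 in SUDHL6, 0.58 ± 0.081, adjusted p = 1.68e-05 in SUDHL4 and 0.26 ± 0.081, adjusted p = 0.01 in Farage. EIF2A with SELT fell in Farage (-0.51 ± 0.083, adjusted p = 7.61e-05). EIF3C with EIF3CL was called lower in Farage (-0.32 ± 0.13, adjusted p = 0.0408), at 0.882 to 1.17 FPKM under the inhibitor and 1.43 to 1.71 FPKM in DMSO. These levels are near the filter on low values. The assembly held another locus under the same names, whose values are not given here. The levels above may thus not be the whole of EIF3C and EIF3CL. The differences of the described locus were -0.29 ± 0.13 (adjusted p = 0.0684) in SUDHL6 and -0.21 ± 0.13 (adjusted p = 0.177) in SUDHL4. No difference between the lines was called for this locus (0.854).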
